A study of Mus musculus with 5 samples.

Results

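Tac1 neurons of the mouse central amygdala (CeA) were defined here as inhibitory nuclei with Tac1 above a set level and little of the genes that mark neighbouring neuron types. A nucleus of any of the 5 deposited libraries was considered when it had 500 to 8000 genes, mitochondrial transcripts under 0.8% of its unique molecular identifiers (UMIs, each one a counted RNA molecule) and at least 1 UMI of Gad1 or Gad2, the enzymes that make GABA. It was a Tac1 neuron when Tac1 reached 1.5 UMIs per 10,000 of the nucleus while Rarb stayed under 5, Foxp2 under 8, Pde1c and Il1rapl2 each under 15, and Dnah5, Vipr2, Tac2 and Nts together under 6. Of 7161 nuclei within the first bounds, 6020 were inhibitory, and 59 of these were Tac1 neurons (0.980%, 95% exact binomial interval 0.747 to 1.26%). They came to 13, 5 and 12 nuclei in fed replicates 1, 2 and 3 and to 17 and 12 in fasted replicates 1 and 2. The members were chosen by these measured levels in the same nuclei, so Tac1 and the other genes of the rule are described below and not tested.

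Tac1 encodes the precursor of substance P and neurokinin A, peptides that act on tachykinin receptors, and Sst encodes somatostatin, an inhibitory peptide. The CeA is made almost wholly of GABA neurons, and its medial part (CeM) holds many of the cells that project to the brainstem. Peptides such as these mark CeA neuron types that take part in feeding, reward and defensive behavior.

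The study asked which neuron types the CeA contains and how fasting alters their transcripts, by single-nucleus RNA sequencing of dissected tissue. All mice were of C57BL6 background. Fed replicates 1 and 2 were 8-week-old mice on normal feeding, and fed replicate 3 was a 12-week-old Htr2a-Cre library that, by the study's methods, carried AAV-DIO-mCherry, a virus that makes the fluorescent protein mCherry only in Cre cells. Fasted replicates 1 and 2 were 8-week-old mice without food for 20 and 21 hours. By the study's methods each library pooled 2 mice, 1 male and 1 female, and a supplementary legend of the study gives shared preparation for fed and fasted samples 1 and for fed and fasted samples 2, with another fed sample on its own. That these numbers are those of the labels was assumed here, which makes the Htr2a-Cre library the fed sample with no fasted partner. Age, genotype, virus and preparation of fed replicate 3 cannot be told apart.

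The depth differed between libraries more than between fed and fasted mice. The libraries held 1151, 1130 and 1438 fed and 1708 and 1734 fasted nuclei within the bounds, with a median of 8326, 14886 and 13814 fed and 6608 and 16367 fasted UMIs per nucleus. The Tac1 neurons summed to 95961, 102876 and 178440 UMIs in the fed and 114341 and 178655 UMIs in the fasted replicates. Their median depth was 6213, 19780 and 12785 UMIs in the fed and 6283 and 14409 UMIs in the fasted replicates. Fed replicate 2 held only 5 of them, under the 10 nuclei set as the least for a library in a comparison, so the count of called genes in each comparison is given without it too.

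Tac1 (chr6:7554120-7565834 on the forward strand of GRCm39) was sparse even in these nuclei. The 59 neurons held 152 Tac1 UMIs in all: 18 nuclei had a single UMI, 16 had 2, 14 had 3 and 11 had 4 or more, up to 9. The Tac1 level ran from 1.51 to 8.37 UMIs per 10,000 with a median of 2.33, and the library medians were 2.33, 1.64 and 2.25 in the fed and 2.40 and 2.15 in the fasted replicates. Just inside the threshold, from 1.5 to 1.8, stood 18 nuclei, and just outside it, from 1.2 to 1.5, stood 18 more, and 7 nuclei in each band held a Sst UMI.

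A single Tac1 UMI was enough in any nucleus with fewer than 6667 UMIs. Of 316 glial nuclei, which should lack Tac1, 4 reached the Tac1 threshold (1.27%, 95% exact binomial interval 0.346 to 3.21%) at a median of 3768 UMIs, against 81 of 6020 inhibitory nuclei (1.35%) at a median of 11957 UMIs. With at least 2 Tac1 UMIs the share was 0.316% in glia (1 of 316, interval 0.00801 to 1.75%) and 0.880% in inhibitory nuclei (53 of 6020, interval 0.660 to 1.15%). The intervals of glia and inhibitory nuclei overlapped at 2 UMIs too. By Tac1 alone the members, and the 18 single-UMI neurons above all, were thus not set apart from background at this depth, and values are also given for the 41 neurons with 2 or more Tac1 UMIs. These 41 had a median depth of 12313 UMIs against 5192 in the 18, so the 2 sets also differ in depth.

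**Figure D1:**
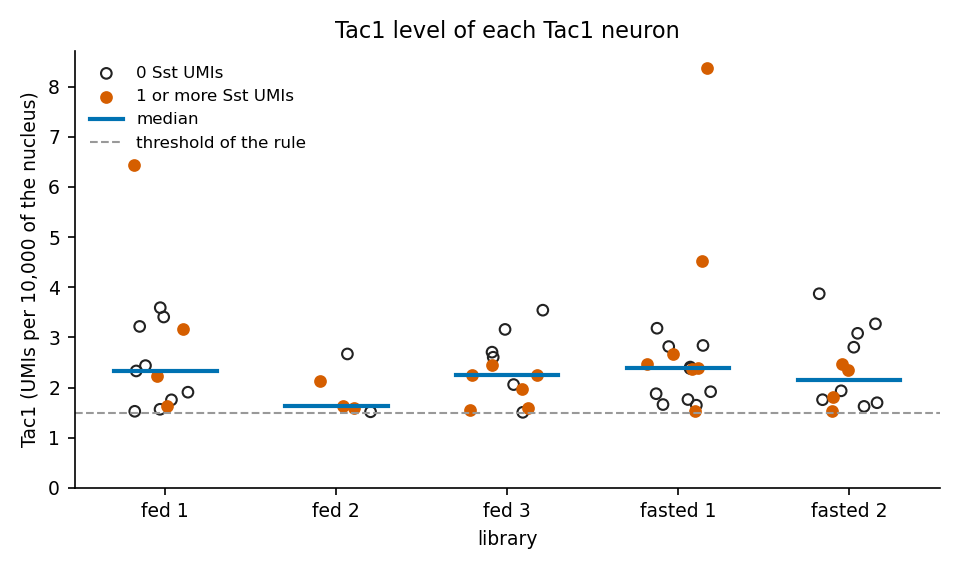
Tac1 level (vertical axis, UMIs per 10,000 of the nucleus) of each of the 59 Tac1 neurons by library (horizontal axis, with points spread sideways at random within a library); filled points hold a Sst UMI, bars are medians and the dashed line is the threshold of the rule at 1.5. The levels run from 1.51 to 8.37, and the 24 nuclei with Sst lie across that range.

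Markers of excitatory neurons were absent, and the CeM marker Cacna1g did not set the nuclei apart from other inhibitory neurons. None of the excitatory markers Slc17a7, Slc17a6, Neurod6 and Tbr1 had a UMI in any Tac1 neuron, and of 7 markers of amygdala interneurons Nkx2-1, Pvalb, Vip and Kit were at 0, while Erbb4 was the most abundant of the others. Cacna1g, the calcium channel subunit the study used as its CeM marker, stood at 72.9, 146 and 157 CPM (the share of the UMIs summed over a class in a library, on the usual CPM scale of count data) in the fed Tac1 neurons, and at 122, 88.6 and 142 CPM in inhibitory neurons of the same libraries with no Tac1 UMI. The ranges overlapped, and so did those of the fasted replicates, with 192 and 50.4 against 131 and 77.5 CPM. Dlk1, which marks another CeM cluster of the study, was at 41.7, 29.2 and 22.4 CPM in the fed and 35.0 and 50.4 CPM in the fasted Tac1 neurons, above the 15.7, 23.7 and 18.6 CPM and the 16.6 and 26.6 CPM of Tac1-zero neurons of the same library in each case, and its log2 fold change in fed mice was 0.56 (adjusted p = 0.876 in edgeR). A list of Sst and Ebf1, used here for the lateral CeA Sst type, was led by Ebf1. It summed to 500.2, 496 and 516 CPM in the fed Tac1 neurons and to 270, 378 and 333 CPM in the fed Tac1-zero neurons, without overlap. In the fasted replicates it was at 341 and 437 against 370.2 and 368 CPM, with overlap. The study, however, named Ebf1 among markers of its CeM Il1rapl2 cluster, with expression elsewhere too. Sst marks the Tac1 type as well, so this list does not show a lateral position. Ebf1 by itself had a log2 fold change of 0.47 in fed mice (adjusted p = 0.272 in edgeR). The amygdalostriatal list, led by Pde10a and with all 7 of its genes detected, summed to 1417, 1060 and 1267 CPM in the fed and 1277 and 767 CPM in the fasted Tac1 neurons, and to 1096, 1010 and 1212 CPM in the fed and 1102 and 839 CPM in the fasted Tac1-zero neurons, so it overlapped too. The position in the CeM is therefore that of the label and was not tested, and the nuclei are called Tac1 neurons here.

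In all, 4 of the 59 nuclei stood apart, 1 in fed replicate 1 and 3 in fasted replicate 2, each with a single Tac1 UMI and with transcripts of glia or of ribosomal proteins. The nucleus of fed replicate 1 held 87 UMIs of the microglial list (C1qa, Csf1r, Cx3cr1, P2ry12; C1qa was the most abundant), which brought that list to 907 CPM there against 9.72 and 0 in fed replicates 2 and 3 and 0 and 11.2 in the fasted replicates. Among those of fasted replicate 2, 2 nuclei held 36 and 63 UMIs of the oligodendrocyte list, led by Mbp, and the other took 19.9% of its UMIs from ribosomal protein genes. The oligodendrocyte list summed to 125, 29.2 and 118 CPM in the fed and 175 and 649 CPM in the fasted replicates, with all 5 of its genes detected. Of the astrocyte list Gfap, of the oligodendrocyte precursor list Pdgfra and Cspg4, and of the endothelial list Cldn5 and Flt1 were at 0. The count of called genes in each comparison below is repeated without these 4 nuclei.

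Somatostatin accompanied Tac1 in many of the nuclei. Sst (chr16:23707321-23711733, reverse strand, GRCm39) had a UMI in 24 of the 59 Tac1 neurons (40.7%, 95% exact binomial interval 28.1 to 54.3%), of which 13 had 2 or more and the highest had 7. By library the share was 30.8, 60.0 and 50.0% in the fed and 41.2 and 33.3% in the fasted replicates. In the 3691 inhibitory nuclei with 0 Tac1 UMIs that met every other bound, called Tac1-zero neurons, it was 10.5, 17.5 and 17.1% in the fed and 18.8 and 27.9% in the fasted replicates. The Tac1 neurons were higher in all 5 libraries, and the lowest Tac1 share (30.8%) was above the highest Tac1-zero share (27.9%). The mean difference was 24.7 ± 14.0 percentage points (SD, n = 5), and an exact two-sided sign-flip test over the 5 libraries gave p = 0.0625, the smallest p that 5 libraries allow.

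The excess of Sst remained when depth was made equal. With each nucleus thinned at random to 4000 UMIs, which left out 4 Tac1 neurons that were shallower, 15 of 55 kept a Sst UMI (27.3%, interval 16.1 to 41.0%), against 10.0% of 3452 Tac1-zero neurons. Glia, which should lack Sst, had a Sst UMI in 8.23% of 316 nuclei as found and in 10.9% of the 137 deep enough to be thinned. At equal depth the Tac1-zero share was thus no higher than the glial background, while the share in Tac1 neurons was higher than in Tac1-zero neurons in all 5 thinned libraries by 16.3 ± 6.32 points (SD, n = 5, exact sign-flip p = 0.0625). Among neurons with 2 or more Tac1 UMIs 48.8% (interval 32.9 to 64.9%) had Sst as found and 29.3% (12 of 41) after thinning. Among the single-UMI neurons it was 22.2% (6.41 to 47.6%) as found and 21.4% (3 of 14) after thinning, with overlapping intervals.

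In summed counts Sst stood at 83.4, 58.3 and 78.5 CPM in fed Tac1 neurons and at 19.8, 38.6 and 26.5 CPM in fed Tac1-zero neurons. The groups did not overlap, and the log2 fold change was 1.36 (SE 0.39, edgeR quasi-likelihood test, Benjamini-Hochberg adjusted p = 0.0177), a call that held in 9 of 15 alternative fits. In the fasted replicates Sst was at 140 and 78.4 CPM in Tac1 neurons and at 53.1 and 43.6 CPM in Tac1-zero neurons. Sst was one of the markers by which the study named these cells, so its level is no independent evidence about them. Rarb/Tac1 neurons, which pass the Tac1 threshold with Rarb at 5 or more, the study's marker of the adjacent amygdalostriatal area, had Sst in 1 of 12 nuclei (8.33%, interval 0.211 to 38.5%).

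**Figure D2:**
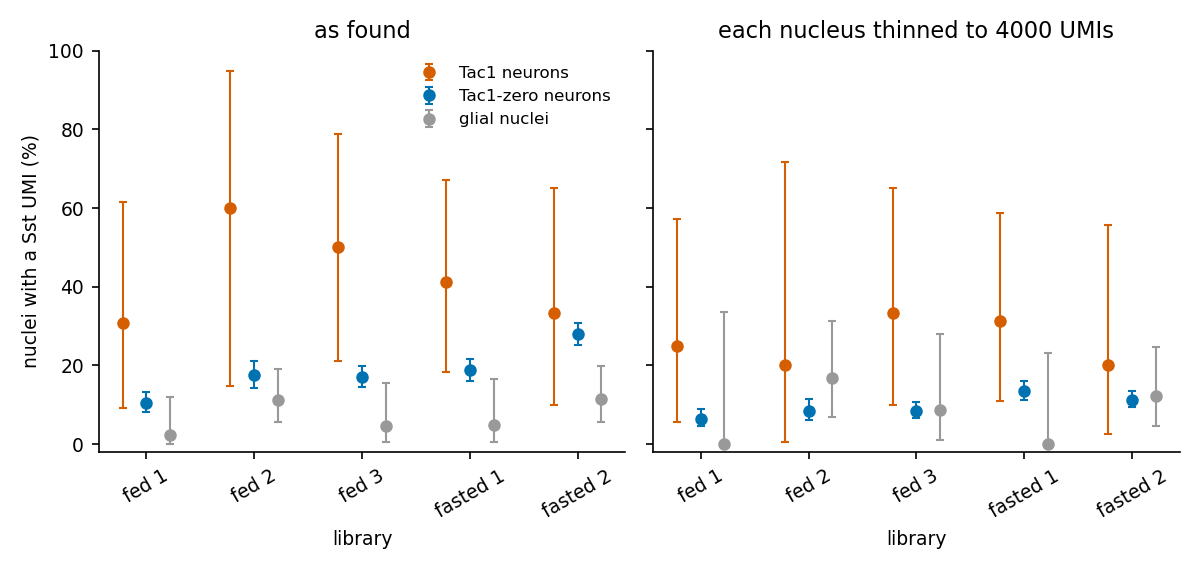
Percent of nuclei with at least 1 Sst UMI (vertical axis) in each library (horizontal axis) for Tac1 neurons, Tac1-zero neurons and glial nuclei, as found (left) and after thinning each nucleus to 4000 UMIs (right); bars are 95% exact binomial intervals, which cover counting error only. Tac1 neurons lie above Tac1-zero neurons in all 5 libraries in both panels, with wide intervals for 5 to 17 nuclei a library.

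The first comparison asked which other genes went with Tac1 in fed mice, within each library. Fed Tac1 neurons had more Asb4, Clstn2, Slc18a2, Gfra2, Vwc2l, Sphkap and the muscarinic receptor Chrm3, and less Kcnip4, Erbb4 and Prkcd, than Tac1-zero neurons. Of 10909 genes tested 376 passed an adjusted p of 0.05 (3.45%), 114 higher and 262 lower, in the edgeR quasi-likelihood test with the library as a block. The median log2 fold change over all genes was -0.11. In all 5 libraries together 529 of 10880 genes passed (4.86%), and 328 of the 376 were among them. Without fed replicate 2 the count was 223, without fed replicate 3 it was 163, without the 4 nuclei that stood apart 391, and with only the neurons of 2 or more Tac1 UMIs 402. DESeq2 called 168, of which 80 were higher and 88 lower, a more even split. With Tac1 at 3 or more per 10,000, which left 5, 0 and 2 nuclei in the fed libraries, 60 genes passed, 4 of them higher. Slc18a2, Asb4, Gfra2 and Vwc2l were then not called. The fitted fold changes of Asb4 and Gfra2 were no smaller than with all members, the log2 fold change of Vwc2l was -0.10, and Slc18a2 had no UMI in those nuclei.

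Asb4 (chr6:5383386-5433026), an adaptor that brings substrates to a ubiquitin ligase, was the most restricted gene. It stood at 62.5, 58.3 and 56.0 CPM in fed Tac1 neurons and at 1.75, 1.43 and 0.932 CPM in fed Tac1-zero neurons. The 2 groups were far apart, with a log2 fold change of 5.39 (SE 0.78, adjusted p = 1.33e-09). Over all libraries Asb4 had a UMI in 15 of 59 Tac1 neurons (25.4%), 1.38% of Tac1-zero neurons and 0.949% of glia. All 15 had 2 or more Tac1 UMIs, 10 of them also had Sst and 14 had Clstn2.

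Clstn2 (chr9:97326448-97915305), which encodes the synaptic adhesion protein calsyntenin 2, was the gene with the smallest p. Its level was 1438, 1419 and 1530 CPM in fed Tac1 neurons and 296, 230 and 229 CPM in fed Tac1-zero neurons. Every Tac1 value was above every Tac1-zero value, the log2 fold change was 2.48 (SE 0.18, adjusted p = 3.99e-38), and all 15 alternative fits made the same call. Slc18a2 (chr19:59249238-59284695), the vesicular monoamine transporter, varied more, at 20.8, 126 and 67.2 against 8.92, 11.6 and 6.78 CPM. These groups also did not overlap, with a log2 fold change of 2.89 (SE 0.56, adjusted p = 2.86e-05), while among all Tac1 neurons 17 of 59 had a UMI of it and 1 nucleus of fasted replicate 2 held 24.1% of them.

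A further 9 genes led the higher side by fold and were, like those above, higher in 3 of 3 fed libraries. Gfra2, the neurturin receptor, had a log2 fold change of 2.43, Vwc2l, a secreted protein, 2.36, and Sphkap, which anchors protein kinase A, 2.27. The enzyme genes were Tbxas1 (thromboxane synthase, 3.15), Plch1 (a phospholipase C, 2.40) and Stk32a (a kinase, 2.13). Syne2, a protein of the nuclear envelope, stood at 2.74, Fbn1 (fibrillin 1, of the extracellular matrix) at 2.20, and the unnamed gene Gm45194 at 3.96. In the 2 fasted libraries alone the log2 fold change of Syne2 was -0.41. Gm45194 overlaps Tex16 on the same strand, so its reads are uncertain, and 1 nucleus of fed replicate 2 held 41.7% of its UMIs. Tbxas1 rested on 10 UMIs in fed Tac1 neurons, and 3 of 8 alternative fits called it.

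**Figure D3:**
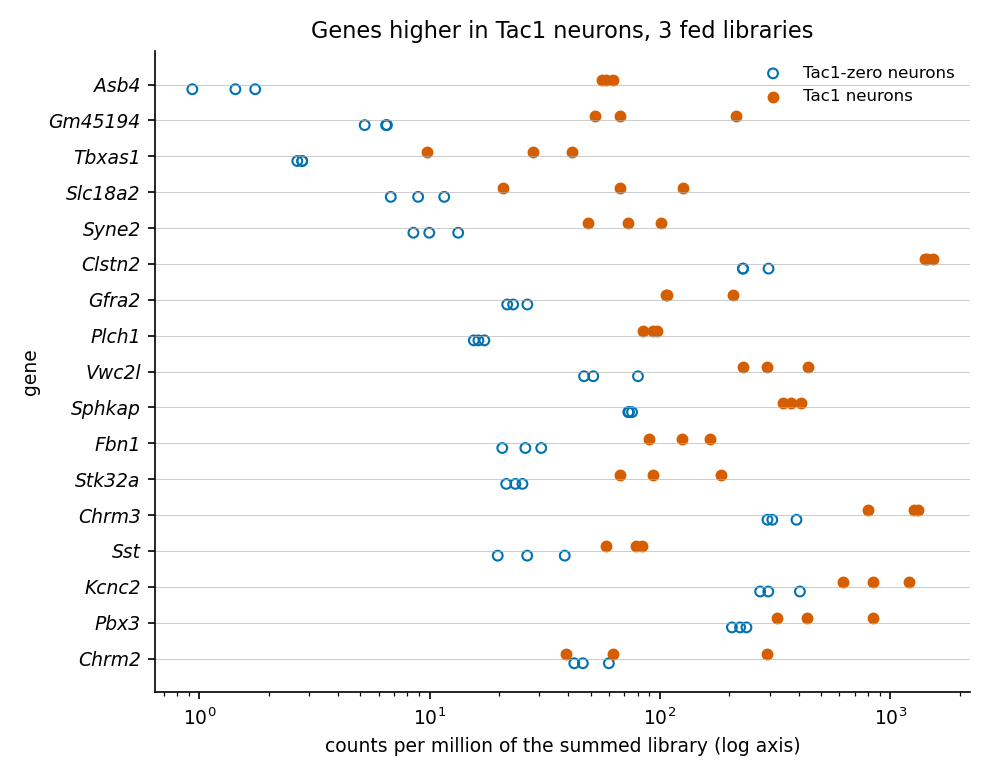
Level (horizontal axis, CPM of the summed library, log axis) of the named genes that were higher in fed Tac1 neurons (filled) than in fed Tac1-zero neurons (open), 1 point for each of the 3 fed libraries. The groups do not overlap for any gene shown except Chrm2, where 1 fed library lies below the Tac1-zero values.

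Among monoamine and acetylcholine receptors Chrm3 was higher in every fed library. Of 16 such genes tested 2 were higher and 1 lower (median log2 fold change 0.06, against -0.11 and 3.45% called over all genes). Chrm3, which couples to phospholipase C, was at 802, 1273 and 1317 against 293, 392 and 308 CPM, without overlap and with a log2 fold change of 1.70 (SE 0.18, adjusted p = 1.95e-17). Chrm2, which couples to inhibitory G proteins, was called at 1.11 but was higher in only 2 of 3 libraries, and 1 nucleus of fasted replicate 2 held 40.4% of its UMIs over all Tac1 neurons. The serotonin receptor Htr1f was lower (-1.12), a call that held in 6 of 15 alternative fits. Of its 89 UMIs over all Tac1 neurons, 28 were in fed ones.

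Of 8 peptide genes tested Sst alone passed, and it was higher, against 3.45% of all genes called in either direction. Penk, the enkephalin precursor, was at 0, 97.2 and 89.7 CPM in Tac1 neurons and at 86.5, 84.4 and 103 CPM in Tac1-zero neurons (log2 fold change -0.54, adjusted p = 0.595). Of 3 tachykinin and somatostatin receptors tested none passed, and Tacr1, the substance P receptor, was at 115, 87.5 and 106 against 121.7, 110.8 and 104.7 CPM. Of 23 other peptide and hormone receptors tested 0 were higher and 2 lower, namely Ntsr1 (a neurotensin receptor, -3.60) and Esr1 (estrogen receptor alpha). Esr1 had no UMI in fed Tac1 neurons and was at least 2.29-fold lower there, taking 3 counts over the fed group as the limit. Fasted Tac1 neurons held 5 UMIs of Esr1, and its call held in 4 of 14 alternative fits. Crh, the stress peptide, was at 0 in all fed and in 1 fasted replicate, and 1 nucleus of fasted replicate 2 held all 11 of its UMIs.

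Of 22 ion channel genes tested 1 was higher and 5 were lower, with a median log2 fold change of -0.23. Over all genes 114 were higher and 262 lower (3.45% called, median -0.11), so the lean to lower values was shared with the whole comparison. Kcnc2, a fast delayed-rectifier potassium channel, was at 844, 1205 and 622 against 296, 406 and 272 CPM and was higher by 1.35 on the log2 scale. Kcnip4 (chr5:48546844-49682249), an accessory subunit of the A-type potassium channels, was at 2115, 2790 and 2746 against 6855, 7040 and 6181 CPM. These values were well apart, and Kcnip4 fell by 1.47 on the log2 scale (SE 0.17, adjusted p = 7.79e-16). Kcnj3, a G protein-gated channel subunit, fell by 1.03, Kcnip1 fell by 0.90, and Kcnq3 and Kcnq5, subunits of the M channel, fell by 0.87 and 0.69.

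Of 41 transcription factors tested 1 was higher, the homeodomain gene Pbx3 (1.13), and the median log2 fold change was -0.69, against 114 higher and 262 lower of all genes (3.45% called, median -0.11). On the lower side 4 passed, among them Nfib (-3.00), Sox6 (-2.93) and Bcl11a (-1.20). Sox6 and Nfib are abundant in glia, with a UMI in 67.7 and 77.8% of glial nuclei, against 8.47 and 11.9% of Tac1 neurons and 20.0 and 16.3% of Tac1-zero neurons. Clock genes (0 higher and 1 lower of 15, the lower one being Npas2 at -1.51) and glucocorticoid, insulin and FoxO response genes (0 and 1 of 13, Sgk1 at -1.53) had 1 called gene each. No gene of the GABA synapse (15 tested) or of the immediate-early list (11 tested) passed in this edgeR fit, where 2 and 1 had an unadjusted p under 0.05, as had 1198 of all 10909 genes. Over all 5 libraries, where 4.86% of all genes passed, 2 of 12 immediate-early genes were higher, namely Fosl2 (2.65) and Nr4a3 (1.30), with a median of 0.98, and 1 of 15 genes of the GABA synapse was lower, the receptor subunit gene Gabrd, which had no UMI in any Tac1 neuron. Fosl2 was at 20.8, 0 and 56.0 CPM in fed and 26.2 and 61.6 CPM in fasted Tac1 neurons, so it was at 0 in 1 library, and Nr4a3 was higher than in Tac1-zero neurons in only 2 of 5 libraries. Of 5 spine and actin genes that the study had named in another cluster of these same samples, 1 was lower, Pdlim5 (-2.46), and that list is no independent evidence of direction.

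Among the genes of the largest fold on the lower side, 12 had no UMI in any fed Tac1 neuron, so a fold can only be bounded. Kcnmb2, a subunit of calcium-activated potassium channels, was at 65.2, 55.8 and 36.3 CPM in Tac1-zero neurons and was at least 6.20-fold lower, and Cdc14a, a phosphatase, was at least 6.001-fold lower. For Epb41l4a, Fat4, Mob3b, Npsr1 (the neuropeptide S receptor), Gm11639, Rbks, Fa2h, Sox2, Zfp668 and Clic4 the bound ran from 2.56 to 4.31. Kcnmb2, Cdc14a, Mob3b, Npsr1 and Clic4 stayed at 0 in the fasted Tac1 neurons too. The others had 1 (Fat4) to 7 UMIs there, the most in Rbks (7) and Fa2h (6). The calls of Rbks and Fa2h held in 5 and 7 of 14 alternative fits. Cdc14a, Fa2h, Sox2 and Clic4 had a UMI in 25.3 to 29.1% of glial nuclei. Outside the rule for named genes, Prkcd, the kinase that marks a lateral CeA type, was at 52.1, 9.72 and 5.604 against 116, 109 and 144 CPM and fell by 2.80 (adjusted p = 1.15e-08), and the neuregulin receptor Erbb4 fell by 1.76 (adjusted p = 9.75e-13).

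A second comparison set the Tac1 neurons against Il1rapl2/Tafa1 neurons, named after the largest cluster the study placed in the CeM. They were taken as nuclei with Il1rapl2 from 3 to under 15 and Tafa1 at 3 or more UMIs per 10,000, Tac1 under 1.5 and the other bounds of the rule, which gave 141 nuclei, 80 of them fed. Nuclei with Il1rapl2 at 15 or more were left out by the rule, from this class and from the Tac1-zero neurons. The class is thus a part with lower Il1rapl2 and does not stand for the study's whole cluster. Tac1 neurons had more Asb4, Sst, Tacr1, Meis2 and Sphkap and less Satb1, Kcnj6, Tshz2 and Tenm2. Of 4062 genes tested in fed mice 100 passed (2.46%), 54 higher and 46 lower. The count rested on fed replicate 3: without it no gene passed in edgeR, with 350 at an unadjusted p under 0.05, while it was 84 without fed replicate 2 and 129 without fed replicate 1. Without the 4 nuclei that stood apart it was 109. In all 5 libraries 220 of 3435 genes passed (6.4%), and 86 of the 100 were among them.

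Sst differed most among the peptides. In fed Il1rapl2/Tafa1 neurons it was at 0, 7.53 and 6.82 CPM, far under the 58.3 to 83.4 CPM of Tac1 neurons, and the log2 fold change was 3.62 (SE 0.62, adjusted p = 0.0116). Tacr1 was at 115, 87.5 and 106 against 50.2, 18.8 and 13.6 CPM, without overlap and higher by 2.08 on the log2 scale (SE 0.43, adjusted p = 0.0250). Asb4 was at 0, 1.88 and 0 CPM in the Il1rapl2/Tafa1 neurons, and 7 of 7 alternative fits that tested it called it higher in Tac1 neurons.

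Of 17 transcription factors tested 3 were higher and 3 lower, against 54 higher and 46 lower of all 4062 genes (2.46%), and none of these calls held without fed replicate 3. Meis2 was at 1209, 1497 and 1121 against 278, 411 and 341 CPM (log2 fold change 1.91), and Pbx3 (1.42) and Zfhx3 (0.68) were higher too. Satb1 was at 10.4, 19.4 and 11.2 against 174, 82.9 and 123 CPM (-3.16), and Tshz2 (-1.28) was lower too. Among channels Kcnc2 was higher (1.45), while Kcnj6, another G protein-gated channel subunit, was at 72.9, 68.0 and 84.1 against 321, 252 and 336 CPM (-1.99) and Kcnip4 was lower (-0.99). The guidance cue Sema3a (2.53), the kinase-like receptor Ror1 (2.92), the calcium sensor Syt10 (2.66), Plch1 (3.21), Gm45194 (5.85), Stk32a (2.50), Vwc2l (2.38), Syne2 (2.29), Sphkap (2.26) and Chrm3 (1.34) were the other named genes on the higher side. On the lower side stood Plpp4 (-4.69), the peptide receptor Qrfpr (-3.05), Fbn2 (-2.88), Brinp2 (-2.58), Lypd1 (-2.45), Zmat4 (-2.26), the adhesion protein teneurin 2 (Tenm2, -2.15), St6galnac5 (-2.10) and the potassium channel Kcnh5 (-2.08). In the 2 fasted libraries alone the log2 fold changes of Kcnip4 and Kcnh5 were 0.25 and 0.38, so their direction turned. Both comparisons use the same fed Tac1 neurons.

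Among the Tac1 neurons themselves the genes that were higher than in Tac1-zero neurons were not uniform. Clstn2 had a UMI in 47 of 59, and of the 12 nuclei without it 8 had a single Tac1 UMI. In neurons with 2 or more Tac1 UMIs the share was 90.2% for Clstn2, 92.7% for Chrm3, 82.9% for Sphkap, 63.4% for Gfra2, 56.1% for Vwc2l and 36.6% for Asb4. In the 18 single-UMI neurons, which were shallower, it was 55.6, 66.7, 55.6, 16.7, 16.7 and 0% in the same order. After thinning to 4000 UMIs Clstn2 was found in 90.2% of the neurons with 2 or more Tac1 UMIs, 64.3% of the single-UMI neurons (14 nuclei) and 41.3% of Tac1-zero neurons. Sphkap was found in 65.9, 64.3 and 20.6% and Gfra2 in 41.5, 14.3 and 6.58% of the same sets, so the contrast by Tac1 UMIs all but vanished at equal depth for Sphkap. In thinned Il1rapl2/Tafa1 neurons the shares were 62.2% for Clstn2, 25.2% for Sphkap and 13.3% for Gfra2. Clstn2 was in 41.7% of the 12 thinned Rarb/Tac1 neurons. A Clstn2 UMI was thus not particular to Tac1 neurons. Of the 47 neurons with Clstn2, 22 had Sst, and of the 12 without it, 2 did. These counts are as found, and depth differed: the median was 8941 UMIs with and 5456.5 without Clstn2. It was 11731 UMIs with and 6551 without Sst. Neurons with Sst were too few for a test against the others, at no more than 5 nuclei a library with at least 1.5 Sst UMIs per 10,000.

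The share of Tac1 neurons did not separate fed from fasted mice. They were 1.39, 0.580 and 0.910% of inhibitory nuclei in the fed and 1.25 and 0.779% in the fasted replicates. The fasted values lay within the fed range, and the means were 0.960 ± 0.407% (SD, n = 3) and 1.01 ± 0.331% (SD, n = 2), with p = 1 in an exact two-sided permutation test. Of the pairs taken to be prepared together, the fasted share differed by -0.142 percentage points in the first and by 0.199 points in the second. The share of Tac1 neurons with Sst differed between fasted and fed mice by -9.67 points as found (exact permutation p = 0.6) and by -0.486 points after thinning (exact permutation p = 1). Within those pairs it differed by 10.4 and -26.7 points as found and by 6.25 and 0 points after thinning. With 3 against 2 libraries no p under 0.1 can be reached.

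The last comparisons asked how fasting altered the transcripts of Tac1 neurons. No gene passed in the direct comparison: of 2674 genes tested 0 were called by edgeR (0%), 140 had an unadjusted p under 0.05, 84 higher and 56 lower, and the smallest adjusted p was 0.164. The count was 0 also without fed replicate 2 and without the 4 nuclei that stood apart. It was 2 without fed replicate 1, 1 without fed replicate 3 and 6 in edgeR's likelihood ratio test. DESeq2 called 2 genes, Kcnip4 and Fth1. With the replicate number as a block, which pairs the libraries taken to be prepared together, 12 genes passed, all higher in fasted mice: Pdzd2, Tenm2, Kcnip4, Fth1, Nos1ap, Tmeff2, Zdhhc14, Pld5, Mbp, mt-Nd4, Col11a1 and Fgf13. That fit leaves 1 residual degree of freedom, since fed replicate 3 has no partner. Mbp belongs to the oligodendrocyte list, of which 2 nuclei of fasted replicate 2 held 36 and 63 UMIs. The block fit was not repeated without the 4 nuclei that stood apart.

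Kcnip4, the channel subunit that was low in fed Tac1 neurons, was among the genes of smallest p. It stood at 2115, 2790 and 2746 CPM in the fed and 5309 and 6991 CPM in the fasted replicates, a log2 difference of 1.28 (SE 0.25, adjusted p = 0.164 in edgeR). The groups did not overlap, and the fasted value was 2.51 times the fed one in each of the 2 pairs taken to be prepared together. Its level in single nuclei was less even. The 6 fasted Tac1 neurons with 100 or more Kcnip4 UMIs per 10,000 held 66.4% of all Kcnip4 UMIs of the fasted neurons, while 1 fed neuron reached that level and held 6.12% of the fed ones. The median over nuclei was 17.4 per 10,000 in fed and 27.9 in fasted Tac1 neurons, both under the 59.3 and 60.3 of Tac1-zero neurons. Of the 6 fasted neurons with the most Kcnip4, 3 had no Clstn2 UMI.

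**Figure D4:**
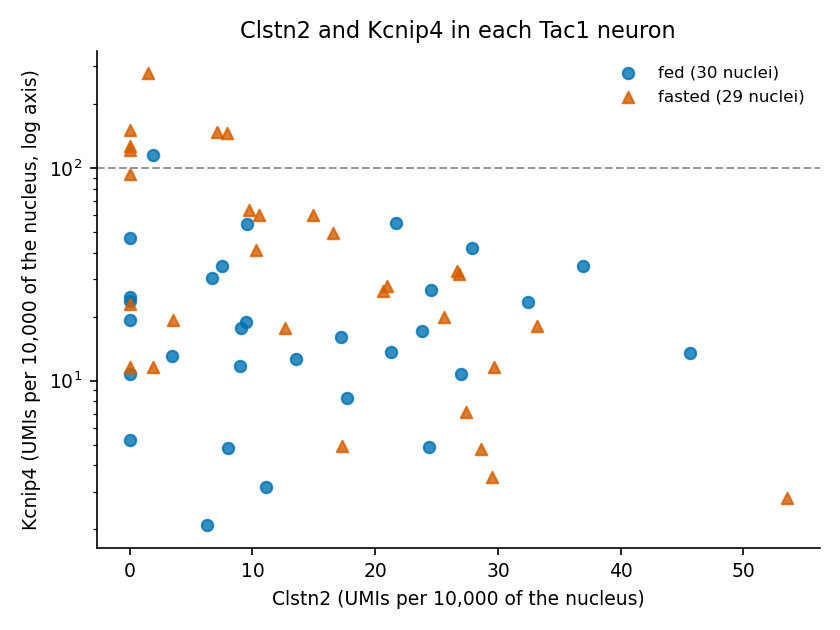
Clstn2 (horizontal axis) and Kcnip4 (vertical axis, log axis) in each Tac1 neuron, both in UMIs per 10,000 of the nucleus, for 30 fed (circles) and 29 fasted (triangles) nuclei; the dashed line marks 100 Kcnip4 UMIs per 10,000. Above that line lie 6 fasted nuclei and 1 fed nucleus, with Clstn2 from 0 to 7.92.

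The other genes of smallest p also fell short of the threshold. On the higher side they were Fth1 (ferritin heavy chain) at 72.9, 9.72 and 11.2 CPM in the fed and 149 and 381 CPM in the fasted replicates, the mitochondrial genes mt-Nd4 and mt-Atp6, the collagen gene Col11a1 and Fgf13, a partner of sodium channels. Their log2 differences were 3.30, 1.99, 1.52, 1.98 and 1.70, with adjusted p from 0.164 to 0.424 in edgeR. One nucleus of fasted replicate 2 held 47.4% of the Fth1 UMIs, and 1 held 40.9% of those of Fgf13. Fth1 was at 747 CPM in the single-UMI neurons, which include the 4 nuclei that stood apart (3 of them among the 12 of fasted replicate 2), and at 53.0 CPM in the others. Without the 4 nuclei its log2 difference was 2.89 (adjusted p = 0.258 in edgeR) and that of Fgf13 1.73 (adjusted p = 0.137). On the lower side they were Prr16, Arhgef10l (a guanine nucleotide exchange factor), Olfm2, Ankfn1 and Fnbp1l, from -1.54 to -1.05, with adjusted p from 0.486 to 0.667. For all of these the fed and fasted values did not overlap. The genes were chosen by smallest p, which favors such separation, so the lack of overlap adds no evidence.

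Mitochondrial transcripts took a larger share in the fasted than in the fed replicates, in Tac1 neurons and in all inhibitory nuclei. Their median share was 0.0902, 0.0170 and 0.0368% of UMIs in fed and 0.302 and 0.376% in fasted Tac1 neurons, and 0.121, 0.0660 and 0.0481% against 0.295 and 0.214% in all inhibitory nuclei. The fed and fasted ranges did not overlap in either. They did overlap in Il1rapl2/Tafa1 neurons, at 0.130, 0.251 and 0.0398% in fed and 0.274 and 0.160% in fasted replicates. Whether the quality of the nuclei has a part in mt-Nd4, mt-Atp6 or the other values was not tested.

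**Figure D5:**
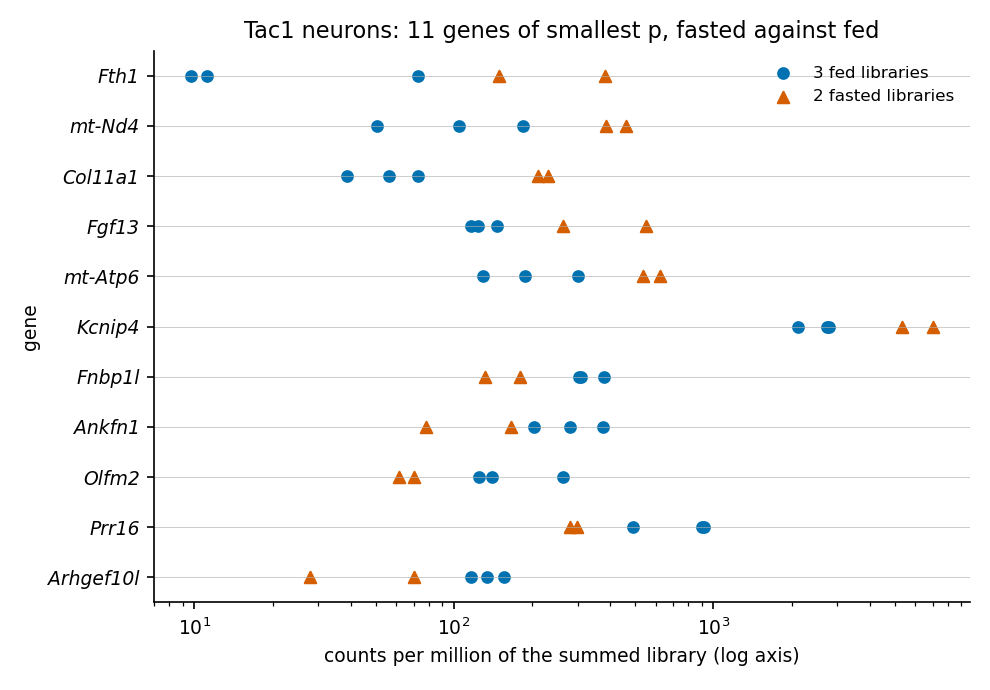
Level in Tac1 neurons (horizontal axis, CPM of the summed library, log axis) of 11 genes of smallest p between fasted and fed mice, with 1 point for each of the 3 fed (circles) and 2 fasted (triangles) libraries. Fed and fasted points do not overlap for any of these genes, none of which passed the adjusted threshold in the edgeR test.

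A further fit asked whether the fasting difference in Tac1 neurons departed from that in Tac1-zero neurons of the same libraries. Of 11890 genes tested 23 passed (0.193%), 15 toward higher and 8 toward lower values in fasted Tac1 neurons, in the edgeR interaction term with the library as a block. Of these 13 had at least 20 CPM and fed and fasted Tac1 values that did not overlap, 12 in the higher direction and 1 in the lower. The share of all 11890 genes with such values was not counted, so this split is not read as a result of fasting. Fgf13 was at 146, 117 and 123 CPM in fed and 262 and 549 CPM in fasted Tac1 neurons, and at 215, 280 and 318 CPM in fed and 201 and 283 CPM in fasted Tac1-zero neurons. The Tac1 values were below the Tac1-zero values of the same library in fed mice and above them in fasted mice, and the fasting differences of the 2 classes differed by 1.85 on the log2 scale (SE 0.35, adjusted p = 0.000711). In fasted replicate 2, however, 1 nucleus held 72 of the 98 Fgf13 UMIs of the Tac1 neurons, so the value there rested largely on that nucleus. Kcnip4, which in Tac1-zero neurons was at 6855, 7040 and 6181 CPM in fed and 6563 and 7137 CPM in fasted replicates, differed by 1.27 (SE 0.27, adjusted p = 0.00303).

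The adhesion protein gene Tenm2 was at 302, 117 and 734 CPM in fed and 875 and 935 CPM in fasted Tac1 neurons, under the 1081 to 1351 CPM of Tac1-zero neurons in all 5 libraries. Prr16, the 1 gene of the 13 in the lower direction, was at 490, 904 and 919 CPM in fed and 297 and 280 CPM in fasted Tac1 neurons, and at 292 to 368 CPM in Tac1-zero neurons. The interaction was -1.35 (SE 0.31, adjusted p = 0.0125). DESeq2 called no gene in this comparison, with 223 at an unadjusted p under 0.05. Without fasted replicate 2 edgeR called 1 gene (Cst3), with only the neurons of 2 or more Tac1 UMIs 5 genes (Fgf13, Pld5, Alk, Lrrk2 and Gpc5), and without the 4 nuclei that stood apart 14. Without fed replicate 2 it called 13 genes, 5 toward higher and 8 toward lower values. Of 16 immediate-early genes tested none passed in edgeR, with 4 at an unadjusted p under 0.05, all toward higher values, and a median of 1.47. Over all 11890 genes 300 toward higher and 214 toward lower values had such a p, and the median was 0.01. Nr4a3 was at 10.4, 0 and 61.6 CPM in fed and 0 and 162 CPM in fasted Tac1 neurons, so only fasted replicate 2 was above the fed values.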

How the data were processed

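The CeA of fed and fasted mice was profiled by single-nucleus RNA sequencing (10x 3′ kit), with 2 mice pooled per library. The deposited count matrices hold UMI counts per gene and nucleus before the authors' filters. Their headers name Cell Ranger 5.0.0, and the study's methods a GRCm39 reference with Cre and mCherry and with introns counted, whereas the submitters' processing notes name Cell Ranger 2.1.1 and mm10. The values were used as deposited (22532 genes).

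Groups came from the labels. The members and gene lists were chosen with earlier results of these data known. Nuclei were filtered and classed as stated above. Tac1-zero and Il1rapl2/Tafa1 neurons served as comparisons, and glial nuclei (at least 10 UMIs of 10 glial markers and no Gad1 or Gad2) as background. Scrublet in scanpy 1.11.5 marked 70 of 7161 nuclei (0.978%) as doublets and 0 of the 59 members, and these stayed in. No cell barcode of a member occurred in another library, against 3 barcodes shared over all nuclei.

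UMI counts were summed per library and class, since nuclei are not replicates, and tested with edgeR 4.0.16 (TMM, quasi-likelihood test, Benjamini-Hochberg adjustment, threshold 0.05) in R 4.3.3, with the library as a block between classes. The study used edgeR's likelihood ratio test on summed counts, which was an alternative here, beside DESeq2 1.42.0, no filter on low counts, thinning to 4000 UMIs, Tac1 at 3 or more per 10,000, removal of doublets, each library left out and the replicate block. Counts with 2 or more Tac1 UMIs, without the 4 nuclei that stood apart and over all 5 libraries were added after seeing the data. Fed replicate 2 entered with 5 members, under the floor of 10. Comparisons with Rarb/Tac1 neurons and between members with and without Sst were not tested, at under 10 nuclei in every library of one class. Genes of the rule were left out of the tests.

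Named genes were the 12 of largest fold each way with an adjusted p under 0.05, one direction in every library (no overlap for fasted against fed) and at least 20 CPM, the list genes with an adjusted p under 0.05, and Sst. Where fewer than 6 passed between fasted and fed, the 6 of smallest p each way were named. A few genes that met these rules or belong to the lists are not reported here. Coordinates are from the GENCODE annotation of GRCm39. Binomial intervals cover counting error only. The p-values rest on the spread between libraries, each a pool of 2 mice, which edgeR shares across genes. In the edgeR fits with Tac1-zero neurons that spread was in effect pooled over all genes. A gene's own spread between libraries hardly entered there, so small p-values do not show that its libraries were alike. A supplementary legend of the study gives shared preparation for fed and fasted samples 1 and for samples 2, and the replicate numbers of the labels were assumed to be the same. The deviations of paired libraries correlated by 0.0526 and 0.0949 over 2662 genes, and those of the unpaired fed replicate 3 and fasted replicate 1 by 0.0582. With 2 fasted libraries their deviations mirror each other. Each fed library therefore had the same value with the opposite sign against the other fasted library. These values cannot decide whether the assumed pairing holds.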

Additional observations from a re-analysis of the deposited data

Results flagged for a closer look

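In fed replicate 3, the Htr2a-Cre library with AAV-DIO-mCherry, 3 of 12 Tac1 neurons (25.0%, 95% exact binomial interval 5.49 to 57.2%) held mCherry UMIs, 25 UMIs in all. The share was 36.0% in the 755 Tac1-zero neurons and 4.55% in the 44 glial nuclei of that library, and 0 in the other 4 libraries. The intervals of Tac1 and Tac1-zero neurons overlap, and mCherry entered no comparison.

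For 23 genes the fasting difference in Tac1 neurons departed from that in Tac1-zero neurons in the edgeR interaction test (Benjamini-Hochberg adjusted p under 0.05). Of these, 13 had at least 20 CPM and fed and fasted Tac1 values that did not overlap. They were 12 toward higher and 1 toward lower values, against 15 and 8 of the 23. How many of all tested genes met both bounds was not counted. The size of that departure on the log2 scale was 2.51 for Sgk3 (a kinase), 2.20 for Kcnh5 (a potassium channel), 2.05 for Alk (a receptor kinase), 1.98 for Mbp (myelin basic protein), 1.90 for Col11a1, 1.85 for Fgf13, 1.59 for Tmeff2, 1.48 for Pdzd2, 1.46 for Tenm2, 1.39 for Zdhhc14 (a palmitoyltransferase), 1.27 for Kcnip4 and -1.35 for Prr16. Pde8a, a cAMP phosphodiesterase, had no UMI in fed Tac1 neurons and 8.75 and 89.6 CPM in the fasted ones, so its fitted 11.23 is no bound.

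Single nuclei of fasted replicate 2 held much of these counts. The largest nucleus had 58.8% of the Pde8a UMIs of all Tac1 neurons, 47.5% for Pdzd2, 42.1% for Sgk3, 40.9% for Fgf13, 38.2% for Alk, 33.8% for Mbp, 32.6% for Col11a1 and 28.8% for Kcnh5. It had 20.9% for Tmeff2, 20.6% for Zdhhc14, 14.8% for Tenm2 and 12.4% for Kcnip4, while for Prr16 a nucleus of fed replicate 3 had 14.7%. Mbp belongs to the oligodendrocyte list, which stood at 649 CPM in fasted replicate 2 and 175 CPM in fasted replicate 1, and Mbp was at 596 CPM in the single-UMI Tac1 neurons and 49.6 CPM in the others. Without the 4 nuclei of glial or ribosomal content 9 of the 13 were still called, while Mbp (0.71, adjusted p = 1), Tmeff2 (1.21, adjusted p = 0.151), Sgk3 (1.04, adjusted p = 1) and Pde8a (adjusted p = 1) were not. Without fasted replicate 2 none of the 13 was called.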

How the results depend on the processing

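Against Tac1-zero neurons in fed mice (376 genes), DESeq2 called 168 genes, thinning to 4000 UMIs gave 149 (137 of them among the 376), Tac1 at 3 or more per 10,000 gave 60 (55 of them among the 376), and the 2 fasted libraries alone gave 224. Leaving out 1 library gave 163 (without fed replicate 3) to 279. All 5 libraries gave 529, 601 with 2 or more Tac1 UMIs and 586 without the 4 nuclei that stood apart. Against Il1rapl2/Tafa1 neurons (100 genes), the likelihood ratio test called 203, DESeq2 57, no filter on low counts 263, thinning 63, Tac1 at 3 or more 0 (259 at an unadjusted p under 0.05 in edgeR), and the 2 fasted libraries 204. Leaving out 1 library gave 0 to 129, and all 5 libraries 220, with 218 for 2 or more Tac1 UMIs and 228 without the 4 nuclei. Between fasted and fed Tac1 neurons (0 genes), the likelihood ratio test called 6, DESeq2 2, no filter 40, thinning 1 and the replicate block 12, and leaving out 1 library gave 0 to 15. For the difference of fasting effects (23 genes), DESeq2 called 0 (223 at an unadjusted p under 0.05), Tac1 at 3 or more 0 (193 in edgeR), thinning 6, 2 or more Tac1 UMIs 5 and the set without the 4 nuclei 14, and leaving out 1 library gave 1 to 27. The fasted minus fed share of Tac1 neurons (0.0537 points) became -0.0212 at Tac1 of 3 or more and ranged from -0.180 to 0.288 with 1 library left out. Reversed log2 values at Tac1 of 3 or more were -0.10 for Vwc2l and -8.13 for Slc18a2 against Tac1-zero neurons and -0.058 for Vwc2l against Il1rapl2/Tafa1 neurons. The value for Slc18a2 was fitted over fed members with no UMI of it, so it is no bound and shows no reversal. In the 2 fasted libraries Syne2 against Tac1-zero neurons was -0.41, and Kcnip4 and Kcnh5 against Il1rapl2/Tafa1 neurons were 0.25 and 0.38. The cause was not tested, though Tac1 at 3 or more keeps only 5, 0 and 2 nuclei in the fed libraries, so fed replicate 2 drops out of these fits, and thinning tests fewer genes. Of the values for named genes under these alternatives, 458 of 638 kept direction and side of the threshold against Tac1-zero neurons, 322 of 402 against Il1rapl2/Tafa1 neurons, 131 of 155 between fasted and fed, and 95 of 182 for the difference of fasting effects. The share of members with Sst gave no value at Tac1 of 3 or more. Sst, with 58 UMIs over the 59 members, was under the filter on low counts between fasted and fed and was not tested there.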
